A study of Rattus norvegicus with 26 samples.

Results

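The comparison described here is between liver tissue of colonies that grew from transplanted fetal hepatocytes and the adult host liver around them, in rats. It uses 10 of the 26 libraries of the series, chosen by their titles: 5 of Post-Transplant Fetal-Derived Colony and 5 of Post-Transplant Adult Host. Each colony library shares a number (242, 243, 246, 248 or 249) with a host library. The series' design text calls the host tissue surrounding, so both regions with a number were taken as 1 animal. The recipients were adult, the cells that formed the colonies were fetal, and both tissues had therefore gone through the same transplantation. Both were taken by laser capture and prepared with the same low-input, stranded total RNA kit. Not given in the labels are the strain, sex, age, time after transplantation, treatment of the recipients, number of regions per library and the way colonies were recognised. The other 16 libraries came from cells before transplantation: 4 of adult hepatocytes and 4 each of fetal hepatocytes sorted as LAP+, LAP+/OC2+ and LAP+/OC2-. These were made from cell pellets with another kit, so their levels are set beside those of the tissue only as a guide to which features belong to which stage.

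Hepatocytes are the main epithelial cell of the liver. Fetal hepatocytes divide, share the organ with blood-forming cells and make a set of fetal plasma proteins, and after birth they switch to the enzymes of drug, amino acid and bile acid metabolism while the fetal proteins are shut off. Fetal hepatocytes transplanted into a suitable adult liver can settle, multiply and replace part of the host tissue as colonies, so a colony beside host tissue of the same liver shows cells of fetal origin and cells of adult origin in a common environment.

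The libraries held 8500596 to 15875986 counts over 32552 deposited features. The files identify features by number and position and do not pair them with gene symbols, and none of the identifiers could be paired in the reference table used, so features are given by chromosome, start and end as deposited, on a build that the sources do not name. Labelled tissue could therefore not be checked against named markers. As a check on abundance, 43 of the 50 nuclear features most abundant in adult hepatocytes were among the 100 most abundant in the hosts, and likewise 43 in the colonies. The host of animal 248 stood apart, with a count in 19581 features against 25648 to 27547 in the other hosts. Levels are CPM, counts scaled to a common library total and then by TMM, a normalisation that assumes most features do not differ, and differences are colony minus host on the log2 scale.

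Few features passed the test between colony and host tissue, in which, as in any bulk sample, fewer cells of a type and less RNA per cell cannot be told apart. With edgeR's quasi-likelihood test, the animal as a block and Benjamini-Hochberg adjustment, 4 of 18632 features tested (0.0215%) were higher in colonies and 2 (0.0107%) were lower at an adjusted p under 0.05. At an unadjusted p under 0.05, 1939 features (10.4%) were higher and 1841 (9.88%) were lower. Every colony lay above every host for 420 features (2.25%) and below every host for 86 (0.462%). The sign was positive in all 5 animals for 1652 features (8.87%) and negative for 1167 (6.26%). No feature without a count in any host had 3 or more counts in all 5 colonies, and none without a count in any colony had 3 or more in all 5 hosts. The number of calls rested on single animals: without animal 246 there were 856 higher (4.58%) and 1202 lower (6.42%), and without animal 242 or 249 there were none. The calls also rested on the test. Without the block none was made (1962 features, 10.5%, were then higher and 1045, 5.61%, lower at an unadjusted p under 0.05), while DESeq2 called 357 higher and 366 lower and limma-voom 1686 and 1609.

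The feature ENSRNOG00000046276 (chromosome 10, 53621375 to 53645194, 42 exon blocks, 6035 nt of exon) rose in the colonies. It was at 7.11, 2.77, 7.16, 7.65 and 6.48 CPM in the hosts of animals 242, 243, 246, 248 and 249, and at 17.0, 11.6, 13.4, 17.3 and 17.3 CPM in their colonies. The groups did not overlap, and the host of animal 243 was the lowest of all. The means were 15.3 ± 2.64 CPM in colonies and 6.23 ± 1.98 CPM in hosts (SD, n = 5), with a log2 difference of 1.35 (SE 0.21, adjusted p = 0.014, edgeR). No read of it was counted in the 4 libraries of adult hepatocytes, and 4 counts were found in those of LAP+ cells.

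The feature ENSRNOG00000004560 (chromosome 3, 1740024 to 1924827, 47 exon blocks, 9659 nt of exon) rose as well. Its hosts stood at 6.05, 3.27, 9.75, 5.07 and 8.70 CPM and its colonies at 21.6, 15.4, 10.9, 16.6 and 22.4 CPM, in the same order of animals. All colonies were above all hosts, but in animal 246 the 2 regions were close. The log2 difference was 1.45 (SE 0.24, adjusted p = 0.031, edgeR), from 6.57 ± 2.65 CPM in hosts to 17.4 ± 4.73 CPM in colonies (SD, n = 5). Before transplantation its levels were low, at 0.080 CPM in adult hepatocytes, from 5 counts. It was at 2.21 CPM in LAP+/OC2+, 0.766 CPM in LAP+ and 0.318 CPM in LAP+/OC2- cells. The first and second of these sorts differed from adult hepatocytes (adjusted p = 3.1e-05 and 0.023, edgeR). LAP+/OC2- cells did not (adjusted p = 0.25, edgeR).

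The other features called higher fall outside the rule for naming and are given because only 4 were called, a choice made after their values were seen. One on chromosome X (74325012 to 74325079) has 68 nt of exon. It had 4, 0, 5, 0 and 0 counts in the hosts and 59, 14, 107, 35 and 72 in the colonies, which is 0.174 ± 0.239 against 4.25 ± 2.505 CPM (SD, n = 5). Its fitted difference leans on the small constant edgeR adds to counts near 0. The other on chromosome 4 (77413672 to 77446624, 2 exon blocks, 2240 nt) had 4.68 ± 1.64 CPM in hosts and 12.2 ± 4.95 CPM in colonies, and no count in adult hepatocytes.

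The feature ENSRNOG00000039473 (chromosome 2, 53116101 to 53140637, 9 exon blocks, 1038 nt of exon) fell in the colonies. Hosts of animals 242, 243, 246, 248 and 249 had 129, 189, 145, 241 and 124 CPM, and their colonies 61.3, 131, 114, 97.6 and 65.7 CPM. Each colony was below its own host, although the groups overlapped. The means were 94.0 ± 30.3 CPM in colonies and 166 ± 49.5 CPM in hosts (SD, n = 5), a log2 difference of -0.83 (SE 0.13, adjusted p = 0.014, edgeR). It was abundant in adult hepatocytes (429 CPM) and LAP+ cells (327 CPM) before transplantation and lower in LAP+/OC2+ cells (22.4 CPM).

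The feature ENSRNOG00000050156 (chromosome 6, 30640660 to 30640716) has a single exon of 57 nt and also fell. Its host values were 76.6, 179, 83.9, 146 and 140 CPM and its colony values 46.3, 92.7, 77.9, 68.7 and 79.8 CPM. The regions of animal 246 were nearly level and those of the other animals were apart. The log2 difference was -0.74 (SE 0.13, adjusted p = 0.033, edgeR), from 125 ± 43.7 to 73.1 ± 17.3 CPM (SD, n = 5). Near-identical copies could share the reads of features as short as this, and the labels do not say how such reads were counted. The 4 features named by identifier lost their calls without animal 242 or 249, and all but that on chromosome 2 also lost theirs without animal 243, with adjusted p up to 0.40 (edgeR) and no change of sign. Another fit, described further on, had the level of a set of silent features as a covariate. There the log2 differences of the features on chromosomes 10, 3, 2 and 6 went to 1.07, 0.64, -0.53 and -0.38. Each had an adjusted p of 0.9998 (edgeR). Their SEs rose, for that on chromosome 10 from 0.21 to 0.34. The covariate was itself higher in the colony of 4 of 5 animals, so the fit cannot separate it from the difference between regions.

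**Figure D1:**
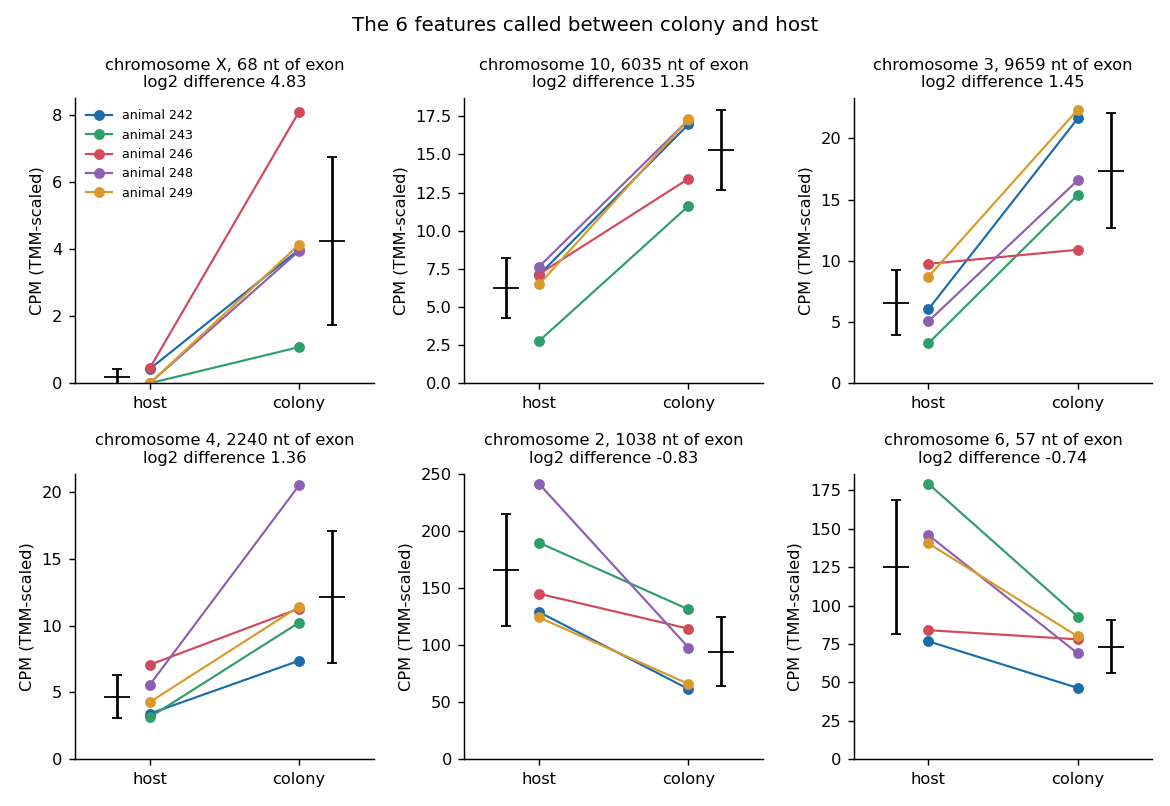
TMM-scaled CPM (vertical axis, linear from 0) of the 6 features called between colony and host, 1 panel each, in the host and colony library of each animal, joined by a line; black marks show the mean and SD of 5 libraries. All colonies lie above all hosts for the 4 features called higher, and each colony lies below its own host for the 2 called lower.

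The animals differed in how far colony and host stood apart. Among 7871 features with a mean of at least 10 CPM, the number that differed at least 2-fold was 215 in animal 242, 49 in animal 243, 7 in animal 246, 449 in animal 248 and 136 in animal 249. Pearson's r between colony and host levels was 0.989 in animal 246 and 0.940 to 0.985 in the others, across genes that are not independent. In animals 242, 243, 248 and 249 most of these features were lower in the colony (74.5%, 70.4%, 62.4% and 77.5%), with median differences of -0.24, -0.12, -0.14 and -0.24. In animal 246, 41.2% were lower and the median was 0.04. The differences of any pair of the other 4 animals correlated across these features with r of 0.227 to 0.431, whereas those of animal 246 correlated with theirs at -0.146 to 0.031.

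Features abundant in mature hepatocytes were lower in most colonies, while features at trace levels there were higher. Of 7378 features tested that had under 1 CPM in adult hepatocytes before transplantation, 1658 (22.5%) were higher and 39 (0.529%) lower at an unadjusted p under 0.05. The background for this rule is given above. Of 1059 features with 100 to 1000 CPM in adult hepatocytes, 4 were higher and 624 (58.9%) lower. Median differences went from 0.71 in the lowest class through 0.06, -0.15 and -0.28 to -0.32 in the class above 1000 CPM. Animal 246 had the opposite order, from -0.12 in the lowest class to 0.11 in the highest. Scaling on features with a mean of at least 10 CPM alone moved their median difference from -0.14 to -0.00 and their split at an unadjusted p under 0.05 from 189 higher (2.40%) and 1735 lower (22.0%) to 602 (7.65%) and 652 (8.28%). On that scaling 7 (0.0889%) were called higher and 2 (0.0254%) lower, and directions near 0 are relative to the scaling.

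**Figure D2:**
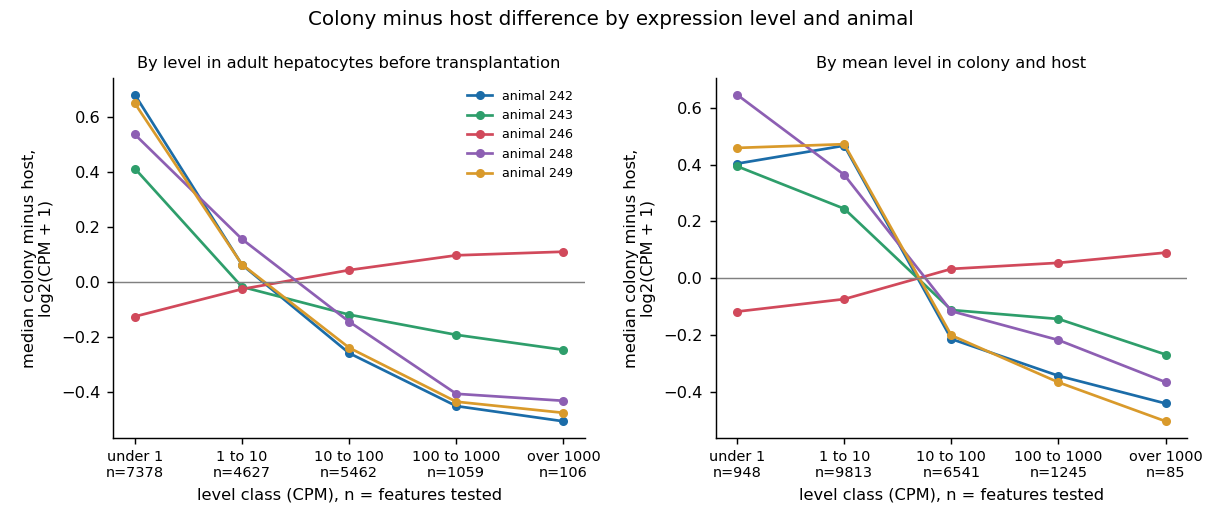
Median colony minus host difference in log2(CPM + 1) (vertical axis) by level class in CPM (horizontal axis), for levels in adult hepatocytes before transplantation (left) and for the mean of colony and host (right); each line is 1 animal. The lines of animals 242, 243, 248 and 249 run downward, and that of animal 246 runs slightly upward, from -0.12 to 0.11 in the left panel.

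The low end was followed with 1116 nuclear features of at least 1000 nt of exon that had no count in any of the 16 libraries before transplantation. Their level per length was 0.275, 0.199, 0.439, 0.375 and 0.291 CPM per kb in the hosts of animals 242, 243, 246, 248 and 249, and 0.681, 0.398, 0.367, 0.601 and 0.700 CPM per kb in the colonies. Colonies were higher in 4 of 5 animals, by 2.47, 2.00, 1.60 and 2.41 times in animals 242, 243, 248 and 249, and lower in animal 246 (0.836 times). The groups overlapped and the difference did not pass an exact two-sided sign-flip test (p = 0.125, the smallest possible being 0.0625 with 5 animals). Features of 1 exon and of several exons had much the same level per kb, for example 0.654 and 0.685 CPM per kb in the colony of animal 242. The 95th percentile of the set was 0.758 to 2.07 CPM per kb in hosts and 1.42 to 2.80 in colonies. The features named above as higher on chromosomes 10 and 3 were at 1.03 and 0.680 CPM per kb in hosts. In colonies they were at 2.54 and 1.80 CPM per kb. The 4 animals with a higher level in the colony were those whose differences above correlated with each other. Sizes did not follow the same order. Animal 248, with 449 features at least 2-fold apart, had 1.60 times, and animal 243, with 49, had 2.00 times. The part of the set's low signal in the results was not tested beyond a fit, chosen after seeing the data, with its level as a covariate. There edgeR called none, and 35 features (0.188% of those tested) were higher and 84 (0.451%) lower at an unadjusted p under 0.05. Few degrees of freedom were left. The covariate was itself higher in the colony of 4 of 5 animals, so this fit cannot separate it from the difference between regions.

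Features that mark mature hepatocytes were abundant in colonies, at sums below those of host tissue in 4 of 5 animals. A set of 34 adult-restricted features was defined before transplantation alone, as at least 100 CPM in each adult hepatocyte library and under 1% of that in LAP+ cells. Their sum was 35076 CPM in adult hepatocytes, against 63.3 CPM in LAP+ cells. In hosts of animals 242, 243, 246, 248 and 249 they summed to 25776, 26820, 19361, 25109 and 23199 CPM, and in the colonies to 19365, 22503, 20267, 18183 and 16648 CPM. Colonies held 80.6% of the host mean (19393 ± 2205 against 24053 ± 2936 CPM, SD, n = 5), lower in 4 of 5 animals, with 105% in animal 246 and 71.8% to 83.9% in the others.

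Of these 34 features, 33 had a negative difference, 25 were lower at an unadjusted p under 0.05 and none was called. The share that was lower in this way was 9.88% over all features, 58.9% over those with 100 to 1000 CPM in adult hepatocytes and 68.9% over those above 1000 CPM, so the count of 25 is near that of features of like abundance. Their median difference was -0.35, against 0.05 over all features tested, and -0.21 on the scaling to features with a mean of at least 10 CPM. The colony level of single members was 63.5% to 104% of the host level. The lowest share belonged to a feature on chromosome 1 (148053687 to 148119857), which had 2412 CPM in adult hepatocytes against 0.096 CPM in LAP+ cells. It stood at 713, 466, 508, 962 and 436 CPM in hosts and at 430, 321, 565, 397 and 245 CPM in colonies, lower in 4 of 5 animals (adjusted p = 0.077, edgeR). A feature on chromosome 2 (88126667 to 88135410) was the exception, with 651 ± 229 CPM in colonies and 626 ± 179 CPM in hosts (SD, n = 5) against 0.833 CPM in LAP+ cells. Some members lie in overlapping positions, such as a pair on chromosome 19 (15033108 to 15239821 and 15081158 to 15335002), so members are not all separate measurements.

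Features that mark LAP+ fetal hepatocytes were at low levels in colonies and hosts alike, and slightly higher in colonies. The 22 fetal-restricted features had at least 20 CPM in each LAP+ library and an adult level under 1% of the LAP+ level. Their sum was 70430 CPM in LAP+ and 497 CPM in adult hepatocytes. In the tissue they summed to 42.7, 34.5, 48.4, 42.4 and 46.5 CPM in hosts of animals 242, 243, 246, 248 and 249 and to 78.1, 53.7, 52.3, 66.1 and 74.0 CPM in colonies. The groups did not overlap, the colony exceeded the host in 5 of 5 animals, and the means were 64.9 ± 11.7 and 42.9 ± 5.36 CPM (SD, n = 5).

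Per length these sums were 1.51 CPM per kb in colonies and 0.998 CPM per kb in hosts, beside 0.550 and 0.316 CPM per kb for the features with no count before transplantation. Of the 22, 14 had enough counts to be tested, and 8 did not. None was called, and 6 of those tested were higher at an unadjusted p under 0.05, beside 10.4% of all features and 17.1% of those with a mean of 1 to 10 CPM. The most abundant in LAP+ cells, on chromosome 14 (19141755 to 19159923), was at 47481 CPM there and at 347 CPM in adult hepatocytes. It had 10.2, 8.60, 8.77, 6.26 and 5.77 CPM in hosts and 12.6, 9.85, 14.3, 6.66 and 10.9 CPM in colonies. Each colony was above its own host, the groups overlapped, and the difference did not pass (log2 0.45, SE 0.21, adjusted p = 0.24, edgeR).

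**Figure D3:**
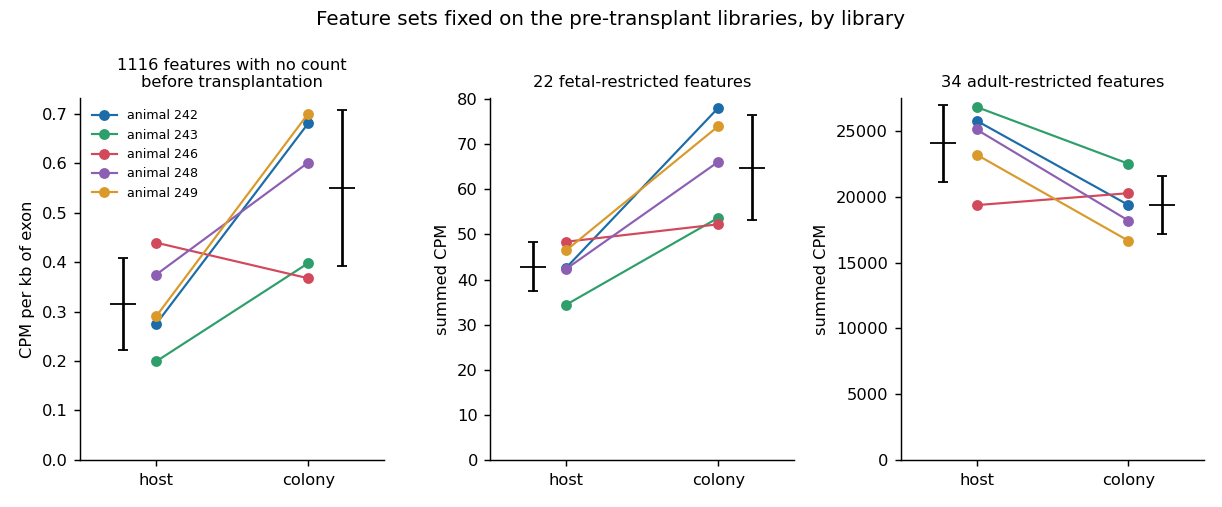
Level in the host and colony library of each animal, joined by a line, of 3 feature sets defined on the libraries before transplantation: features with no count there (CPM per kb of exon), fetal-restricted features and adult-restricted features (summed CPM); linear axes from 0, black marks are mean and SD of 5 libraries. Colonies had 64.9 CPM of fetal-restricted features against 70430 CPM in LAP+ cells, and 80.6% of the host sum of adult-restricted features.

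Wider sets of fetal and adult features differed by small amounts between the regions. Of 13818 features tested before transplantation, 3512 (25.4%) were fetal-higher and 3060 (22.1%) adult-higher, defined as an adjusted p under 0.05 (edgeR) and at least 2-fold between the mean of the 3 fetal sorts and adult hepatocytes. Between colony and host, 3174 of the fetal-higher features were tested, of which 1 was called higher and none lower. Their median difference was 0.21, beside 0.05 over all features tested. At an unadjusted p under 0.05, 437 (13.8%) were higher and 84 (2.65%) lower, beside 10.4% and 9.88% of all features tested. Of 3028 adult-higher features tested, 43 (1.42%) were higher and 913 (30.2%) lower, 1 was called lower, and the median was -0.19. The sorts, tested singly, gave medians of 0.25, 0.12 and 0.21 for features higher in LAP+, LAP+/OC2+ and LAP+/OC2- cells than in adult hepatocytes.

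The medians also went with the level of the features. Most tested fetal-higher features, 2182, had a mean under 10 CPM in the tissue. Their median there was 0.43, and 17.1% were higher at an unadjusted p under 0.05. All features with a mean of 1 to 10 CPM had nearly the same values, 0.44 and 17.1%. Adult-higher features under 10 CPM had a median of 0.02. Among features with a mean of 10 to 100 CPM in the tissue, the median was -0.02 for fetal-higher and -0.20 for adult-higher features, and at 100 CPM and over it was -0.01 and -0.26. On the scaling to features of at least 10 CPM these medians became 0.12 and -0.05 at 10 to 100 CPM, and 0.13 and -0.12 at 100 CPM and over, so the sign of the fetal-higher medians and the size of the adult-higher ones depended on the scaling. The gap between the sets, which a change of scale leaves as it is, was 0.17 and 0.24 at these levels. By animal the gap at 100 CPM and over was 0.28, 0.18, -0.09, 0.46 and 0.27 in animals 242, 243, 246, 248 and 249. Animal 246 had the opposite sign at each level.

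**Figure D4:**
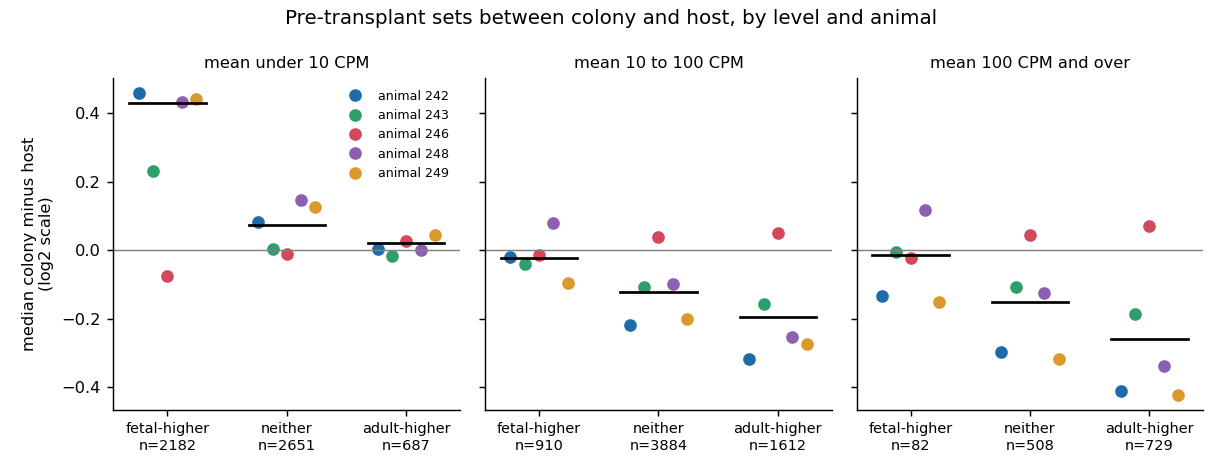
Median colony minus host difference (vertical axis, log2 scale) of fetal-higher, neither and adult-higher features, split by mean level in the tissue; points are animals (log2 of CPM + 1), black lines the median of the edgeR differences. At 10 CPM and over the fetal-higher medians (-0.02 and -0.01) lie above the adult-higher ones (-0.20 and -0.26), and animal 246 is above 0 for the adult-higher features; scaled on features of at least 10 CPM, the medians are 0.12 and 0.13 against -0.05 and -0.12.

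The transcripts that dominate the hepatocyte were mostly lower in colonies. Of the 25 nuclear features most abundant in adult hepatocytes, colonies held 66.7% to 87.8% of the host level (median 79.0%). A total of 21 were lower at an unadjusted p under 0.05, beside 9.88% of all features and 68.9% of those above 1000 CPM in adult hepatocytes, and none was called (lowest adjusted p 0.086, edgeR). Over the 50 most abundant, the median difference was -0.35, and -0.21 on the scaling to features of at least 10 CPM. The most abundant, on chromosome 14 (19176277 to 19191863), was at 92360, 81579, 61758, 81170 and 60144 CPM in hosts of animals 242, 243, 246, 248 and 249 and at 63030, 61681, 63693, 61699 and 42177 CPM in colonies. The colonies were nearly level except that of animal 249, hosts spread more widely, and the difference did not pass (log2 -0.36, SE 0.14, adjusted p = 0.16, edgeR). In animal 246 the colony was higher for 23 of the 25.

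**Figure D5:**
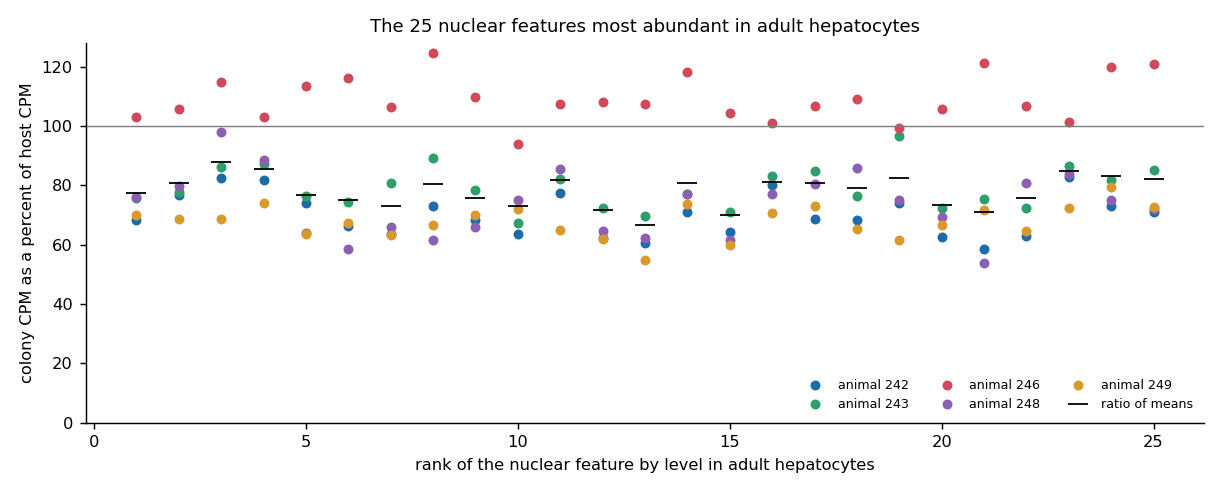
Colony level as a percent of host level (vertical axis, linear from 0) for the 25 nuclear features most abundant in adult hepatocytes (horizontal axis, by rank); points are animals and black marks the ratio of the group means. The marks lie between 66.7% and 87.8%, and animal 246 lies above 100% for 23 of the 25 features.

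Neighbouring features that differed together before transplantation were followed as runs of at least 4 consecutive features of one direction. There were 56 adult-higher runs, 50 of them with a negative median difference between colony and host, and 71 fetal-higher runs, 51 with a positive one. Over single features, the difference was positive in 68.9% of the fetal-higher and 20.7% of the adult-higher ones tested. It was positive in 54.4% of all tested, in 76.5% of those with a mean of 1 to 10 CPM and in 23.3% of those at 10 CPM and over. Of the 56 adult-higher runs, 8 were lower in the colony in 5 of 5 animals and 1 was higher. The shares of single features tested were 6.26% lower and 8.87% higher by that rule. The 1 higher run, of 4 features on chromosome 4 (78283026 to 78342863), was among the 6 adult-higher runs with a positive median. It was at 16.5, 14.6, 16.6, 16.8 and 9.24 CPM in hosts and 30.4, 19.5, 18.4, 20.2 and 18.4 CPM in colonies. It stood at 145% of the host mean without overlap of the groups, and its level before transplantation was low, 6.80 CPM in adult hepatocytes and 3.84 CPM in LAP+ cells. Its level per length was 2.39 CPM per kb in colonies and 1.64 CPM per kb in hosts. The 95th percentile of the features with no count before transplantation was 1.42 to 2.80 CPM per kb in colonies and 0.758 to 2.07 in hosts. The most abundant of the 6, a run of 8 features on chromosome 5 (77245143 to 78131114), was at 4314, 7064, 2990, 1919 and 2072 CPM in hosts and at 3484, 6803, 4025, 1436 and 2504 CPM in colonies. Animals ranged far more widely than regions, and colonies held 99.4% of the host mean. A run on chromosome 13 (56598957 to 57080622, 6 features) was at 70.5% of the host mean, and one on chromosome 14 (22072024 to 22619968, 5 features) at 69.7%, each lower in 4 of 5 animals.

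Of the 71 fetal-higher runs, 2 were higher and 2 were lower in the colony in 5 of 5 animals. Of single features tested, 8.87% were higher and 6.26% lower in this way. A run of 31 features on chromosome 6 (133552821 to 133898905) was among those higher. Some of its members also belong to the fetal-restricted set, so the run and that set are not separate measurements. The sum of this run was 9.66, 3.84, 10.8, 8.34 and 10.7 CPM in hosts of animals 242, 243, 246, 248 and 249. In colonies it was 20.3, 14.5, 13.1, 18.4 and 20.98 CPM, without overlap. The sum in LAP+ cells was 2013 CPM. Per length the run was at 1.85 CPM per kb in colonies and 0.921 CPM per kb in hosts. The features with no count before transplantation were at 0.550 and 0.316 CPM per kb. Only 3 features of the run could be tested, and none of these was higher at an unadjusted p under 0.05. Another run on chromosome 15 (34601037 to 35113678, 9 features) summed to 31.9 ± 10.4 CPM in colonies and 15.9 ± 4.17 CPM in hosts (SD, n = 5), higher in 4 of 5 animals. A run on chromosome 10 (15538872 to 15661331, 7 features) with 17191 CPM in LAP+ cells was level between regions, with 64.4 ± 5.21 CPM (SD, n = 5) in colonies beside 67.7 ± 4.61 CPM (SD, n = 5) in hosts.

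The makeup of the libraries was compared by 6 shares of counts, for which 5 animals cannot give an exact sign-flip p under 0.0625. Mitochondrial features held 1.05 ± 0.301% of counts in colonies and 0.723 ± 0.167% in hosts (SD, n = 5), higher in 3 of 5 animals (exact sign-flip p = 0.25, adjusted over 6 shares 0.469). Of 30 mitochondrial features tested, 7 (23.3%) were higher and 0 lower at an unadjusted p under 0.05 (edgeR). Over all features tested these shares were 10.4% and 9.88%. None of the 30 was called, and 1 (3.33%) was higher in 5 of 5 animals, beside 8.87% of all features tested. That feature (14136 to 15278) was at 1992 ± 524 against 1211 ± 301 CPM (SD, n = 5), with a log2 difference of 0.71 and an adjusted p of 0.071 (edgeR). Chromosome X features held 1.02 ± 0.0347% in colonies and 0.969 ± 0.0663% in hosts, higher in 5 of 5 animals (exact sign-flip p = 0.0625, the smallest possible, adjusted 0.375). The 20 most abundant nuclear features held 31.8 ± 1.80% of nuclear counts in colonies and 33.7 ± 1.97% in hosts, higher in 1 of 5 animals (exact sign-flip p = 0.125, adjusted 0.375). The shares of nuclear features under 200 nt and of longer single-exon ones did not pass (exact sign-flip p = 0.56 and 0.69). Chromosome Y features were counted in every colony and every host, with 1247 to 2353 counts a library. They held 0.0131% in colonies and 0.0142% in hosts, higher in 1 of 5 animals (exact sign-flip p = 0.31, adjusted 0.469). Of the 3 with a mean of at least 10 CPM, that at 505996 to 589267 was at 35.3 ± 7.68 CPM in colonies and 46.7 ± 8.29 in hosts, and that at 1217800 to 1238420 at 48.5 ± 12.1 and 68.6 ± 22.3 CPM (SD, n = 5). Both were lower in the colony of each animal, as were 12.1% of all features with a mean of 10 to 100 CPM. Neither passed (adjusted p = 0.11 and 0.082, edgeR). The third, at 914045 to 933699, was lower in 3 of 5 animals, at 8.74 ± 3.00 against 12.8 ± 6.52 CPM (SD, n = 5; adjusted p = 0.22, edgeR).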

How the data were processed

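The deposited files give raw counts per feature and library, made by the authors with featureCounts (Subread 1.5.2) after STAR 2.5.2b, Trimmomatic 0.36 and bcl2fastq 2.17, per the submitters' processing notes. Build, annotation and strand use are not given in the sources. Overlapping and antisense features can therefore not be told apart. Captured tissue was extracted with PicoPure and prepared with a SMARTer Stranded Pico kit, and sorted cells with NEBNext Ultra, per the labels' protocols.

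The test was edgeR 4.0.16's, run in R 4.3.3 (filterByExpr by group, TMM, robust quasi-likelihood F test, animal as block) and Benjamini-Hochberg adjustment over all 18632 features tested. Libraries sharing a number were taken as 1 animal from the design text; deviations of same-numbered libraries correlated at 0.092 to 0.632, over 0.1 in 4 of 5 pairs, and 3 of 5 hosts correlated best with the colony of their own number (host 246 went better with colony 242, at 0.251 against 0.123, and host 242 with colony 246, at 0.110 against 0.092). Replicates were not duplicates (chi-square per degree of freedom 9.56 to 42.1 over 20 pairs). The labels call them biological replicates. Levels in tissue are TMM-scaled CPM, levels before transplantation CPM by library total, and differences by animal log2(CPM + 1). A count of 0 allows up to 3 counts, 0.189 to 0.353 CPM before scaling, for counting error only. Shares were compared with exact sign-flip tests. The pre-transplant sets come from the 16 other libraries.

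Planned gene lists and cell type markers could not be applied, because none of 32552 identifiers was paired with a symbol in the RefSeq table (GRCr8), so the rule named the 2 features with the smallest p in each direction, of those whose higher group averaged 10 CPM or more and whose sign was shared by all animals. The comparison, sets and lists were chosen with earlier results of these data known. The edgeR step was tested on simulated data. Alternatives were no block, other scaling and filters, DESeq2 1.42.0, limma-voom (limma 3.58.1), multi-exon features only, leaving out each animal, and a covariate added after seeing the data.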

Additional observations from a re-analysis of the deposited data

Results flagged for a closer look

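Within-group outliers were looked for in 84 groups of 5 libraries, and 8 held a library whose gap to the others exceeded Dixon's 95% critical value; chance flags about 1 in 20 groups, and many of these measures share libraries. Animal 248 accounted for 5 of them. Its colony had the highest share of chromosome Y counts, 0.0164% against 0.0119% to 0.0126% in the other colonies, and the highest share in the 20 most abundant nuclear features, 34.9% against 30.2% to 31.6%. It also had the highest level of the features of rank 16 and rank 22 in adult hepatocytes, 7529 CPM against 5817 to 6045 CPM and 5310 CPM against 2458 to 3199 CPM. Its host had the highest share in single-exon nuclear features of at least 200 nt, 3.11% against 1.49% to 1.86%.

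The remaining ones were in other animals. The host of animal 243 had the lowest level of ENSRNOG00000046276, 2.77 CPM against 6.48 to 7.65 CPM. The colony of animal 249 had the lowest level of the feature of rank 1 in adult hepatocytes, 42177 CPM against 61681 to 63693 CPM. The host of animal 246 had the lowest level of the feature of rank 25, 2495 CPM against 3439 to 3661 CPM.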

How the results depend on the processing

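The count of called features was the result that depended most on the processing. Without the replicate block, and with the level of silent features as a covariate, 0 were higher and 0 lower (1962 higher and 1045 lower at an unadjusted p under 0.05 without the block). There were 325 higher and 426 lower without the low-count filter, 7 and 2 at a mean of at least 10 CPM, 13 and 4 among nuclear multi-exon features, 357 and 366 with DESeq2, and 1686 and 1609 with limma-voom; RLE size factors gave 4 and 2. Leaving out 1 animal in turn gave 0 to 856 higher and 0 to 1202 lower, the most without animal 246. The median of adult-higher features was -0.28 to -0.08 over the settings in which it was computed. That of fetal-higher features was 0.16 to 0.26 with all levels in the set; over its 992 members with a mean of at least 10 CPM it was -0.02, and 0.12 when scaled on features of that level, so its sign there turned with the scaling. These medians were not computed with DESeq2, limma-voom, no filter or the covariate. Without animal 248 the share differences of features under 200 nt and of single-exon features turned from -0.0635 and -0.189 to 0.0113 and 0.0477 percentage points; leaving out the animals in turn gave -0.130 to 0.0113 and -0.340 to 0.0477. The cause of these changes was not tested.

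Depth limits the fetal-restricted features, 8 of 22 of which had too few counts to test.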
